A study of Mus musculus with 36 samples.

Results

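The Gata4 locus of mouse chromosome 14 was read through an ATAC-seq count table on genome build mm9, in control fibroblasts and in cells that had received an additional copy of the Gata4 coding sequence. All regions of the table that overlap chromosome 14 from 63780000 to 63900000 were taken, which gave 85 of 1393120 regions. Of these, 35 overlap the approximate span of Gata4, from 63817000 to 63865000. The count filter kept 54 of the 85 for testing, 27 of them in the gene span. The other 31 were narrow and sparse, with a median width of 227 bases against 1162.5 for those kept, 9 to 118 counts each over all libraries, and 1.47% of the counts of the window. Of the 54, 7 had a very high level at day 2 and were set apart, and the other 47 were described separately. These 7 were chosen by their read levels at day 2 and in fibroblasts, namely a day 2 mean of at least 10 CPM and at least 4 times the fibroblast mean. CPM are read counts scaled by the effective size of each library. The levels of the 7 in those groups are a description without a test.

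ATAC-seq uses a transposase to place sequencing adapters in accessible DNA. Explants of neonatal hearts of CD-1 mice carrying the alpha-MHC-GFP reporter gave Thy1+/GFP- cells, largely fibroblasts per the labels. Control cells (dsRed fibroblasts below) received a dsRed retrovirus and no inhibitor, and were sorted as dsRed+ at day 7. GMT cells received retroviral Gata4, Mef2c and Tbx5 together with the TGF-beta inhibitor sb431542 and the Wnt inhibitor xav939, and were sorted as alpha-MHC-GFP+ at days 2, 3, 7, 14 and 21. Each of the 6 groups had 3 libraries that the labels call biological replicates, 18 of the 36 samples in the labels, and the other 18 were not analysed here. Factors, inhibitors and sort cannot be told apart in a comparison with the dsRed fibroblasts, and time in culture joins them except at day 7. A group is a sorted population, so fewer cells with an open site and less open chromatin per cell cannot be told apart. Libraries were sequenced at either of 2 cores, and which library went to which core is not given in the sources used here. Whether the sorted cells express the markers of their labelled type was not analysed here.

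GATA4 is a zinc-finger transcription factor that binds GATA motifs and takes part in heart development, and it is one of the factors used to turn fibroblasts into cardiomyocyte-like cells. The endogenous gene is transcribed from the higher towards the lower coordinate. In the RefSeq gene order its neighbours are Neil2, a DNA glycosylase gene, and Fdft1, a gene of cholesterol synthesis, on the lower side, and Blk, a gene for a Src-family kinase, on the higher side. A delivered coding sequence holds no introns, so its reads align to the exons of the gene, and a count of reads per region does not separate them from reads of the endogenous chromatin. No mm9 annotation was used, so no region below is called an exon, an intron or a promoter, and none is attributed to either source.

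Library totals ran from 2.29 to 23.2 M counts, and 4.52 to 49.4% of them fell in 1 region of chromosome 1. Of the libraries, 2 stood apart in the window, both numbered replicate 1, at day 2 with 2.29 M counts and at day 3 with 2.95 M. Both were among the 3 shallowest libraries, the other being a dsRed fibroblast library with 2.34 M counts, and the part of depth in their pattern was not tested. Results that rest on these 2 libraries are given with and without them.

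The 7 regions set apart fell into 4 with a day 2 mean 11.9 to 57.8 times the fibroblast mean and 3 at 4.15 to 4.19 times, just inside the cut. The 4, called A, B, C and D here, also passed a cut of 8 times. Region A lies at chr14:63819108-63820631 and is 1523 bases wide. Region B, at chr14:63822054-63822711, is 657 bases wide. Region C, at chr14:63823062-63825062, is 2000 bases wide and ends 10 bases before the next region. Region D, at chr14:63858329-63860065, is 1736 bases wide and starts 7 bases after the region before it. A, B and C lie together near the lower end of the gene span, and D stands alone near its upper end. Just outside the cut were 4 regions at 4.15, 4.28, 5.49 and 26.7 times the fibroblast mean whose day 2 means of 3.02, 2.24, 3.84 and 2.87 CPM missed the minimum.

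Region A read 1.28, 2.78 and 3.24 CPM in the dsRed fibroblasts and 74.3, 100 and 170 CPM at day 2. It then stood at 49.3, 49.8 and 124 CPM at day 3, at 12.1, 18.9 and 22.1 at day 7, at 6.41, 9.58 and 13.5 at day 14, and at 10, 12 and 13.6 at day 21. Every GMT library lay above every dsRed library, and the day 3 libraries did not overlap those of days 7, 14 and 21. The mean at day 2 was 115 ± 49.3 CPM (SD, n = 3), 47.2 times the fibroblast mean of 2.43 ± 1.03. At day 21 the mean of 11.9 ± 1.8 CPM was still 4.89 times that of the fibroblasts.

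Region B was the lowest of the 4 in fibroblasts, with 0.694, 0.721 and 0.821 CPM, and read 30.4, 39.1 and 59.7 CPM at day 2. Its libraries read 17.4, 21.9 and 47.3 CPM at day 3, 2.74, 4.67 and 5.81 at day 7, 2.01, 2.14 and 3.31 at day 14, and 1.89, 3.54 and 3.74 at day 21. Its day 2 mean of 43.1 ± 15 CPM (SD, n = 3) was 57.8 times the fibroblast mean and 14.1 times the day 21 mean, the highest ratios among the 4. As in region A, the GMT libraries did not overlap the fibroblasts at any day.

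Region C read 3.24, 3.6 and 4.01 CPM in fibroblasts, 36.8, 38.1 and 54.7 at day 2 and 20.8, 25.6 and 44.3 at day 3. At day 7 it read 14.3, 15.1 and 16.8 CPM, at day 14 7.13, 10.8 and 12.7, and at day 21 11.1, 12 and 12.9. Its day 2 mean of 43.2 ± 9.95 CPM (SD, n = 3) was 11.9 times the fibroblast mean and 3.59 times the day 21 mean, so its range over the time course was the narrowest of the 4.

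Region D held more reads than any other region of the window in replicates 2 and 3 of days 2 and 3. It read 5.09, 6.13 and 6.57 CPM in fibroblasts, 46.7, 366 and 409 at day 2 and 28.5, 203 and 431 at day 3. The low value at each of these days was that of replicate 1. Day 7 gave 48.5, 53.9 and 62.7 CPM, day 14 gave 21.4, 30 and 40.8, and day 21 gave 29.6, 30.5 and 31.8. Replicate 1 of day 2 thus lay under all day 7 libraries in region D, although in regions A, B and C it lay above all of them. The mean was 274 ± 198 CPM at day 2, 221 ± 202 at day 3 and 30.6 ± 1.1 at day 21 (SD, n = 3).

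**Figure D1:**
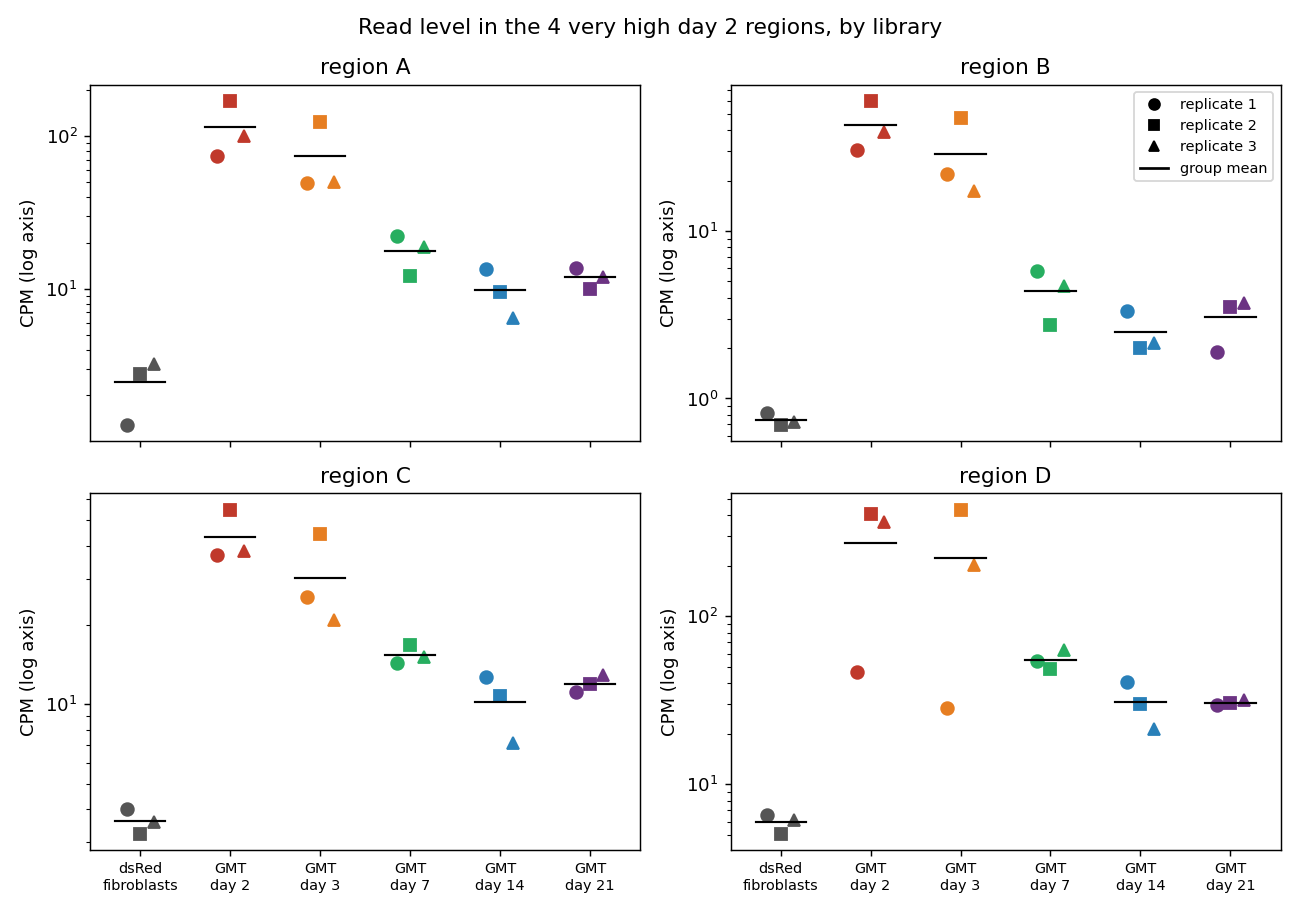
Read level in CPM (log axis) of regions A to D in each of the 18 libraries, by group. Marker shape gives the replicate number and the line the group mean of 3 libraries. Replicate 1 of days 2 and 3 sits at 46.7 and 28.5 CPM in region D, below the other libraries of those days at 203 to 431 CPM.

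Per kilobase of region, which allows a comparison between regions, the mean levels in fibroblasts were 1.6, 1.13, 1.81 and 3.41 CPM for A, B, C and D. At day 2 they were 75.4, 65.5, 21.6 and 158 CPM per kilobase, and at day 21 7.8, 4.66, 6.01 and 17.7. The region next to C, chr14:63825072-63826952, had means of 5.76 CPM in fibroblasts, 9.31 at day 2 and 11.6 at day 21, a ratio of day 2 to fibroblasts of 1.61. The day 2 level therefore differed between C and its neighbour, and 1 count per region does not show where within them the change lay.

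**Figure D2:**
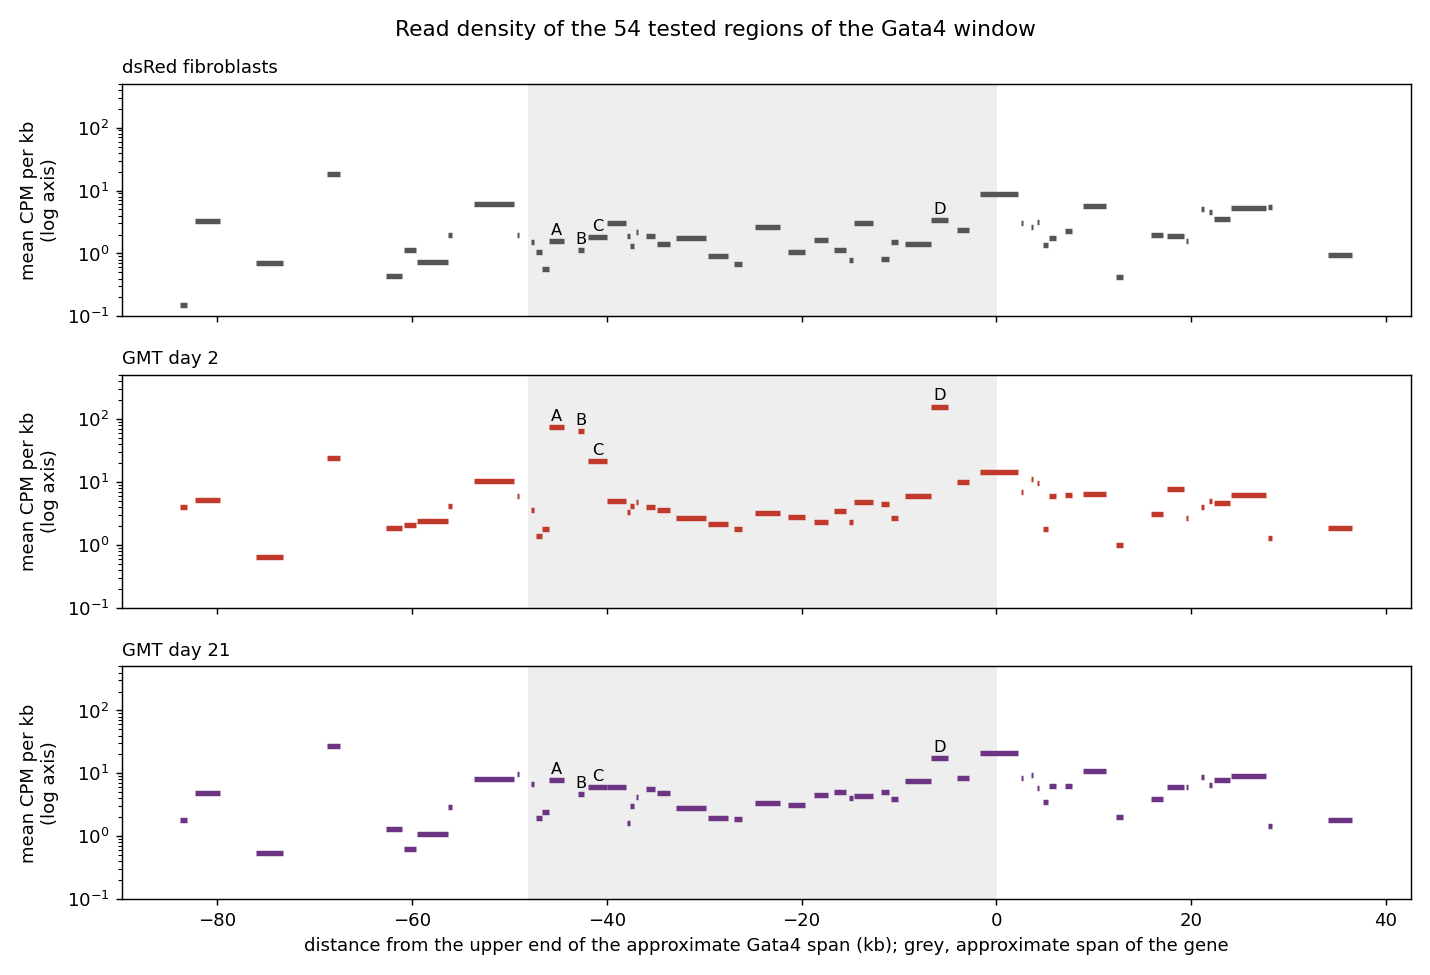
Mean read density (CPM per kilobase, log axis) of the 54 tested regions against their distance from the upper end of the approximate Gata4 span, in dsRed fibroblasts and in GMT cells at days 2 and 21. Each line spans 1 region and the grey band is the approximate gene span; at day 2 regions A to D stand at 21.6 to 158 CPM per kilobase above their neighbours.

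Region D made up 52.6 to 69.7% of the summed reads of A to D in 13 of the 15 GMT libraries. In replicate 1 of day 2 its share was 24.8% (exact 95% binomial interval 21.4 to 28.5), against 59% (58 to 60.1) and 67.4% (65.5 to 69.1) in the other libraries of that day. In replicate 1 of day 3 it was 22.7% (19 to 26.8), against 66.6% (65.4 to 67.8) and 69.7% (68.6 to 70.8). These intervals account for counting error alone, because without molecular identifiers some reads may be copies of 1 molecule. The share of region A was 39.5 and 39.4% in these 2 libraries and 15.1 to 24.5% in the other GMT libraries. In fibroblasts region D held 51.8, 43.1 and 44.7% of 139, 51 and 38 reads.

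**Figure D3:**
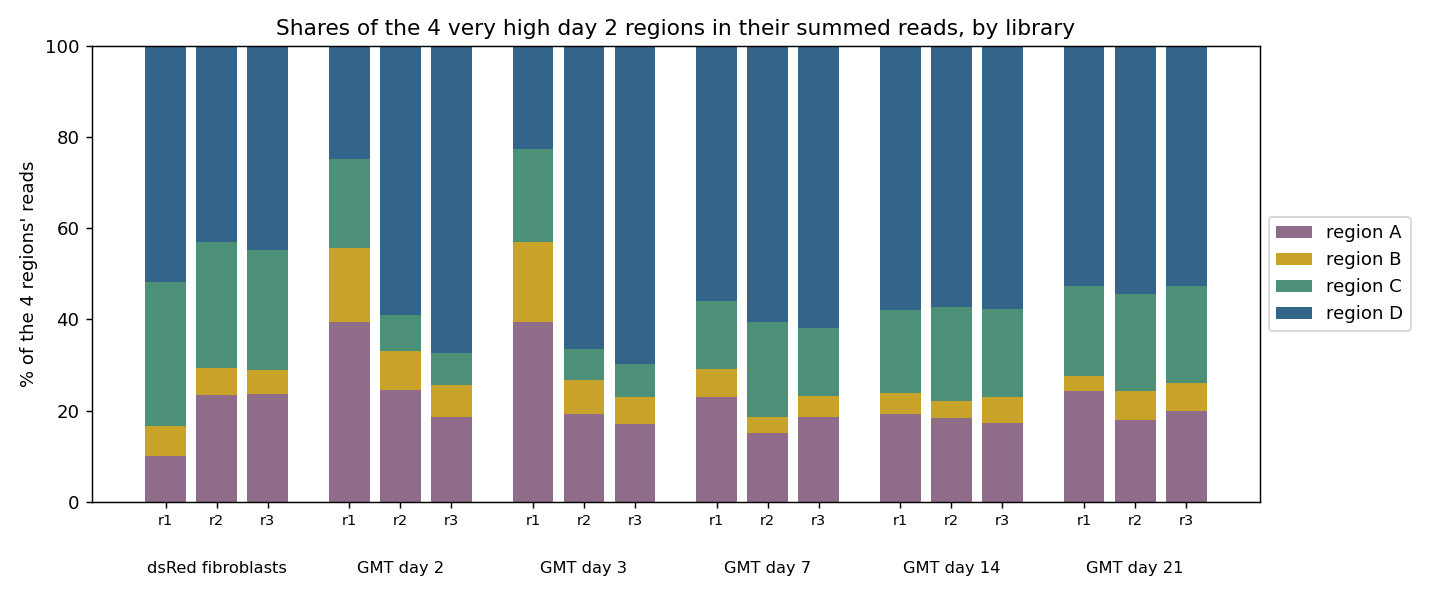
Shares (%) of regions A, B, C and D in their summed reads, stacked, for each library of each group (r1 to r3, replicates 1 to 3). Region D holds 24.8 and 22.7% in replicate 1 of days 2 and 3, and 52.6 to 69.7% in every other GMT library.

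Summed over A to D, the level was 12.7 ± 0.95 CPM in fibroblasts, 475 ± 259 at day 2, 354 ± 267 at day 3, 92.4 ± 10.9 at day 7, 53.3 ± 16.6 at day 14 and 57.6 ± 2.52 at day 21 (mean ± SD, n = 3). The 4 regions took 5.32 to 6.41% of the reads of the window in fibroblasts, 37.1 to 63.8% at day 2 and 31.2 to 58.2% at day 3. At days 7, 14 and 21 the ranges were 13.9 to 16.5%, 10.4 to 13.1% and 11.6 to 13.6%. In order of level, days 2 and 3 were not separated from each other, and neither were days 14 and 21, while every day 7 library lay above all libraries of days 14 and 21 and below all of days 2 and 3.

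For regions A to D and the 3 near the cut, the test results given as such are those between times that did not choose them, from edgeR's quasi-likelihood test over all 144810 tested regions and Benjamini-Hochberg adjustment. From day 3 to day 7, 2 of the 54 regions of the window fell and none rose, against 0.00691% of all tested regions called lower and 0.00138% called higher. Both were set apart, and their fall was already known when they were chosen. Region B fell by 2.68 on the log2 scale (SE 0.33, adjusted p = 2.6e-06 by edgeR). Region A fell by 2.07 (SE 0.36, adjusted p = 0.00308 by edgeR), a call that was lost without replicate 2 of day 3 (adjusted p = 0.691), without replicate 2 of day 7 (0.349) and without replicate 3 of day 7 (0.0977). The log2 fold changes of C and D were -0.98 (SE 0.29) and -2.01 (SE 0.75), and neither passed the test, with adjusted p-values of 0.643 and 0.78 by edgeR.

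From day 3 to day 21, A, B and C fell and no other region of the 54 was called in either direction, against 0.249% of all regions called lower and 0.163% higher. The log2 fold change was -2.65 for A (SE 0.37, adjusted p = 8.71e-06 by edgeR) and -3.21 for B (SE 0.35, adjusted p = 9.88e-09). That of C was -1.33 (SE 0.3, adjusted p = 0.0193), and this call was lost under 8 of 15 alternatives, among them without replicate 2 of day 3 (adjusted p = 0.264) or any library of day 21 (0.133 to 0.26). The same 3 regions were called lower at day 14 against day 3, with log2 fold changes of -2.89, -3.46 and -1.53 and adjusted p-values of 2.06e-06, 7.22e-09 and 0.00849 by edgeR, against 0.198% of all regions called lower and 0.1% higher. The call of C was lost there under 6 of 15 alternatives, among them without replicate 2 of day 3 (adjusted p = 0.138) or replicates 1 (0.0718) or 3 (0.092) of day 14.

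Region D had a change as large as that of A, but the spread of its early libraries was wider. Its log2 fold change against day 3 was -2.84 (SE 0.78, adjusted p = 0.153 by edgeR) at day 14 and -2.85 (SE 0.77, adjusted p = 0.149) at day 21. Without the 2 libraries that stood apart, the log2 fold changes of region D at days 7, 14 and 21 against day 3 were -2.5, -3.36 and -3.37, each called by edgeR. The day 3 library left out was the lowest of its day in this region, so these calls follow in part from the choice of what was left out, and are not an independent test. Under DESeq2 with all libraries it was called at day 14 (adjusted p = 0.0357) and day 21 (0.0282) and not at day 7. Leaving out replicate 1 of day 3 alone gave calls at days 14 and 21, with the same limit.

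Between days 7 and 14, and between days 14 and 21, edgeR called none of the 54 regions and 0% of all tested regions. At an unadjusted p under 0.05 by edgeR there were 9 and 1 of the 54 window regions, against 10373 and 4757 of all 144810. DESeq2 and limma voom also called 0 window regions in both steps. Regions A and D changed by -0.81 and -0.83 on the log2 scale from day 7 to day 14 and by 0.24 and -0.01 from day 14 to day 21.

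The 3 regions just inside the cut had another course. The first, chr14:63855617-63858322, borders region D and had mean levels of 3.82 CPM in fibroblasts, 16 at day 2, 17.6 at day 3, 24.8 at day 7, 21.4 at day 14 and 20.2 at day 21. Its level was 5.29 times that of fibroblasts at day 21, above the 4.19 times of day 2. The second, chr14:63860998-63862179, lies between D and the upper end of the span, with means of 2.8 CPM in fibroblasts, 11.7 at day 2, 12.7 at day 7 and 10.2 at day 21. The third, chr14:63882522-63884285, lies beyond the gene span, and its day 2 mean was 13.7 CPM against 3.31 in fibroblasts. Between days 3 and 21 their log2 fold changes were 0.19, -0.3 and -0.2, and none was called between any later day and day 3 or between later days. Over the 18 libraries, Pearson correlations of log2 CPM were 0.955 to 0.972 among A, B and C and 0.876 to 0.908 between D and those 3. They were 0.408 to 0.772 between the 3 regions near the cut and A to D, and 0.771 to 0.895 among the 3. All of these share the same libraries and scaling, and are given as a description.

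The 47 other regions did not meet the rule, which by itself favours smaller differences from fibroblasts at day 2 among them. The region starting at 63781218, which is among the 47, stood at 26.7 times the fibroblast mean at day 2, above region C at 11.9 times. A region low in fibroblasts passes the count filter only through its level in GMT cells, and 20 of the 47 had a fibroblast mean under 1 CPM, so the counts of calls below describe these regions. Their summed level was 195 ± 6.03 CPM in fibroblasts, 314 ± 47.6 at day 2, 334 ± 94.7 at day 3, 452 ± 22 at day 7, 353 ± 119 at day 14 and 373 ± 50 at day 21 (mean ± SD, n = 3). At each of the 5 times all 3 libraries lay above the fibroblast maximum of 201. The sum was highest at day 7, when that of regions A to D had already dropped to 92.4 CPM.

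At day 2, 14 of the 47 regions were higher than in dsRed fibroblasts and 1 was lower, against 12.2% of all tested regions called higher and 8.09% lower. At day 3 the counts were 15 and 1, against 13.2 and 8.84%. At day 7, where time in culture is matched, 29 were higher and 1 was lower, against 15.5 and 12%. At day 14 the counts were 23 and 1, against 12.8 and 9.7%, and at day 21 25 and 1, against 13.3 and 10.1%. The median log2 fold change of the 47 was 0.98, 0.91, 1.38, 1.15 and 1.17 at days 2, 3, 7, 14 and 21. Over all tested regions the medians were -0.0027, -0.0071, 0.0059, 0.0681 and 0.0473. These 5 comparisons share the fibroblast libraries. Scaled by library totals alone, the median of all regions moved to 0.63 at day 2 and 0.51 at day 3, with 23.1% called higher and 1.94% lower at day 2, and the median of the 47 lay 1.04 and 0.85 above it, against 0.98 and 0.92 in the scaling used here. Without the 2 libraries that stood apart, 48 other regions were tested, and 22, 25, 36, 27 and 31 of them were called higher at days 2, 3, 7, 14 and 21, against 10.7, 12.3, 16.3, 12.6 and 13.9% of all regions in that fit. The regions called lower then numbered 0 at day 2 and 1 at each later day, against 5.56, 6.5, 9.98, 8.28 and 8.54%. The 2 libraries left out had the lowest summed level of the 47 at their day, 264 and 232 CPM. The counts called higher at days 2 and 3 in that fit thus follow in part from what was left out.

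**Figure D4:**
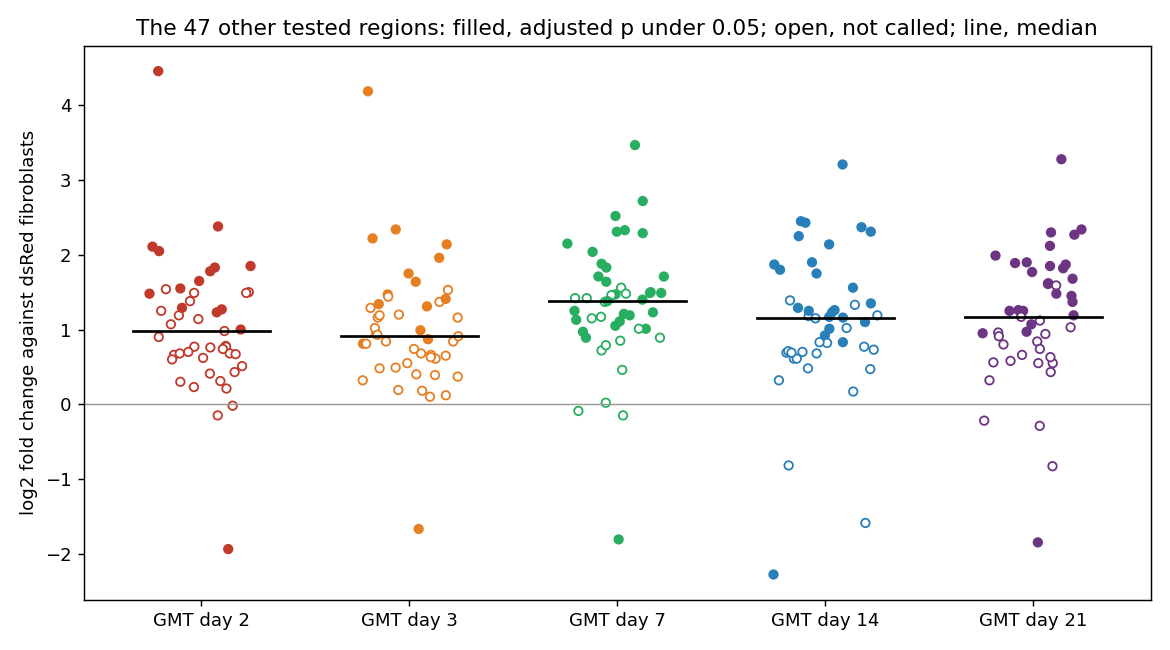
Log2 fold change against dsRed fibroblasts of the 47 other tested regions at each day, with filled points for adjusted p under 0.05 and a line at the median. The medians run from 0.91 at day 3 to 1.38 at day 7, and 1 region is called lower at each day.

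The values were also split by position. Of the 21 other regions within the gene span, 13 were higher at day 7 and the median log2 fold change was 1.42. Of the 26 outside it, 16 were higher and the median was 1.18. Of all tested regions, 15.5% were called higher at day 7. At day 21 the counts were 13 of 21 and 12 of 26, with medians of 1.26 and 0.97, against 13.3% of all regions. At day 2 they were 7 of 21 and 7 of 26, against 12.2%, and at day 14 13 of 21 and 10 of 26, against 12.8%. Day 3 had 6 of 21 and 9 of 26, against 13.2%, so the larger share then lay outside the span. The difference between both groups of regions was not tested.

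The region with the highest mean level among the 47 was chr14:63863359-63867256, which spans the upper end of the gene span, the side from which the gene is transcribed. It read 32.3 to 37.5 CPM in fibroblasts and 85.5 to 119 at day 7, without overlap. Its means were 34.9 CPM in fibroblasts, 56.2 at day 2, 65.9 at day 3, 98.5 at day 7, 77.7 at day 14 and 82.9 at day 21. It rose by 1.5 on the log2 scale at day 7 (SE 0.36, adjusted p = 0.000875 by edgeR), 1.16 at day 14 (adjusted p = 0.0118, lost without fibroblast replicate 1 at 0.0711 or replicate 1 of day 14 at 0.114) and 1.25 at day 21 (adjusted p = 0.00626). Replicate 1 of day 3, at 29 CPM, lay below the fibroblasts, and the other day 3 libraries read 73.6 and 95.1. At days 2 and 3 the region was not called with all libraries, and without the 2 that stood apart its log2 fold changes of 1.02 and 1.36 were called. The day 3 library left out was the lowest of its day in this region. Its call at day 3 thus follows in part from what was left out, and is not an independent test.

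The next regions by level lay outside the gene span. Below it, chr14:63811371-63815447 rose from a mean of 25 CPM in fibroblasts to 50.2 at day 7 (log2 fold change 1.01, adjusted p = 0.0174 by edgeR) and stood at 33.6 at day 21. This call was lost without fibroblast replicates 1 (0.0651) or 2 (0.0609) or replicate 1 of day 7 (0.0844). Further down, chr14:63796237-63797581 had means of 24.1 CPM in fibroblasts, 32.1 at day 2, 44.8 at day 7 and 37.1 at day 21. Above the span, chr14:63889141-63892714 had means of 18.8, 21.9, 36.9 and 32.7 CPM in the same groups, and chr14:63873863-63876228 13.2, 15.1, 30.8 and 26.

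The largest called rise of the 47 was at chr14:63781218-63781927, at the lower edge of the window and far from the gene span. It held 2 counts over the 3 fibroblast libraries and 54 over those of day 2, and the ratio after scaling was 23.2, with an exact 95% interval of 6.12 to 196 for counting error. The ratio was 12.5 at day 7 (3.27 to 106) and 10.2 at day 21 (2.65 to 87). Within the gene span, chr14:63853135-63853997 read 0.36 to 1.28 CPM in fibroblasts and 5.17 to 6.8 at day 7, a log2 fold change of 2.72 (SE 0.4, adjusted p = 1.52e-07 by edgeR). It had already risen by 2.11 at day 2 and 2.34 at day 3. Just above the span, the narrow region chr14:63868599-63868801 rose by 2.38 at day 2, 2.52 at day 7 and 2.45 at day 14, and each call was lost without fibroblast replicate 1 (adjusted p = 0.0654 to 0.134). Other rises named for their size were those of chr14:63802378-63804008 at day 3 (2.22), chr14:63869785-63870351 at day 14 (2.43), and chr14:63848385-63849529 (2.34) and chr14:63817212-63817500 (2.30) at day 21. Apart from chr14:63848385-63849529, the regions named in this paragraph had a fibroblast mean under 1 CPM. Such a region passed the count filter through its level in GMT cells. Its fold changes, p-values and intervals are therefore a description and no independent support.

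The lone called fall against fibroblasts was at chr14:63892854-63893262, beyond the gene on the higher side. It read 1.62 to 2.52 CPM in fibroblasts and 0 to 1.02 CPM at day 2, and its log2 fold change ran from -2.28 at day 14 (adjusted p = 0.00307 by edgeR) to -1.67 at day 3 (adjusted p = 0.0205). The call was lost under 6 of 13 alternatives at day 2, among them without replicates 1 (0.0814) or 2 (0.108) of that day, and under 5 of 14 at day 3, among them without fibroblast replicate 3 (0.0598) or replicate 3 of day 3 (0.232). It was also lost under 2 of 14 at day 7, 1 of 13 at day 14 and 4 of 13 at day 21, among the last without replicates 2 (0.0564) or 3 (0.0539) of day 21. Without the filter on low counts it was lost at all 5 days (adjusted p = 0.16 to 0.61 by edgeR). Its mean was 2.2 CPM in fibroblasts and 0.408 to 0.73 in the GMT groups, so it passed the count filter through its fibroblast level. The fold changes and p-values of this region are therefore a description and no independent support. Between GMT days, chr14:63804145-63805398 fell by 1.60 from day 2 to day 21 (SE 0.45, adjusted p = 0.0455 by edgeR), and this call was lost under 11 of 15 alternatives. It was 1 of the 47 other regions in that comparison, or 2.13%, against 0.871% of all regions called lower and 0.572% higher. From day 2 to day 3 edgeR called none of the 54 regions and 0% of all tested, and DESeq2 and limma voom also called 0 window regions. At an unadjusted p under 0.05 by edgeR there were 0 window regions, against 5247 of all 144810 tested.

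Outside the window, the regions whose course over the 18 libraries was most like that of the summed 7 regions were ranked by Pearson correlation of log2 CPM, among 100406 regions with a mean of at least 1 CPM. The highest correlation, 0.951, was that of chr1:157674060-157676373, with means of 1.43 CPM in fibroblasts, 7.37 at day 2 and 3.48 at day 21. Next were the nearby pair chr14:35332574-35333847 (0.94) and chr14:35334859-35339931 (0.937), the latter with means of 4.41, 62.1 and 24.7 CPM in the same groups. They were followed by chr17:31898118-31899762 (0.936) and by chr13:83800334-83802523 (0.933), which read 2.14, 118 and 5.98 CPM. The remaining 5, with correlations of 0.927 to 0.933, were chr1:167110183-167111884, chr11:100642952-100644138, chr17:10642094-10644642, chr13:108580799-108583062 and chr16:4074872-4075689. Against the sum of A to D alone, chr13:83800334-83802523 came first (0.954) and another region of the same stretch, chr13:83795713-83796137, was at rank 3 (0.931).

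That stretch of chromosome 13 was taken as a candidate for reads of the delivered Mef2c, a MADS-box transcription factor of the same cocktail, from earlier results of these data, and the same rule set apart 7 regions there. Their summed level was 15.4 ± 2.61 CPM in fibroblasts, 435 ± 181 at day 2, 246 ± 140 at day 3, 48.8 ± 15.9 at day 7, 28.1 ± 4.77 at day 14 and 25 ± 2.05 at day 21 (mean ± SD, n = 3). The ratio of the reads of A to D to those of the 7 regions was 0.692 to 0.927 in fibroblasts, 0.549 to 1.71 at day 2, 0.569 to 2.4 at day 3, 1.43 to 2.4 at day 7, 1.21 to 2.32 at day 14 and 2.19 to 2.48 at day 21. The lowest of the GMT ratios, 0.549 and 0.569, were those of replicate 1 at days 2 and 3. At day 21 all 3 libraries lay above all fibroblast libraries, and they overlapped those of days 3, 7 and 14. After the mean fibroblast level was subtracted from both sums, the ratio was 0.536 to 1.75 at day 2, 0.55 to 2.63 at day 3, 1.62 to 3.31 at day 7, 1.6 to 5.56 at day 14 and 4.25 to 5.96 at day 21. On that scale the day 21 libraries overlapped only those of day 14.

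**Figure D5:**
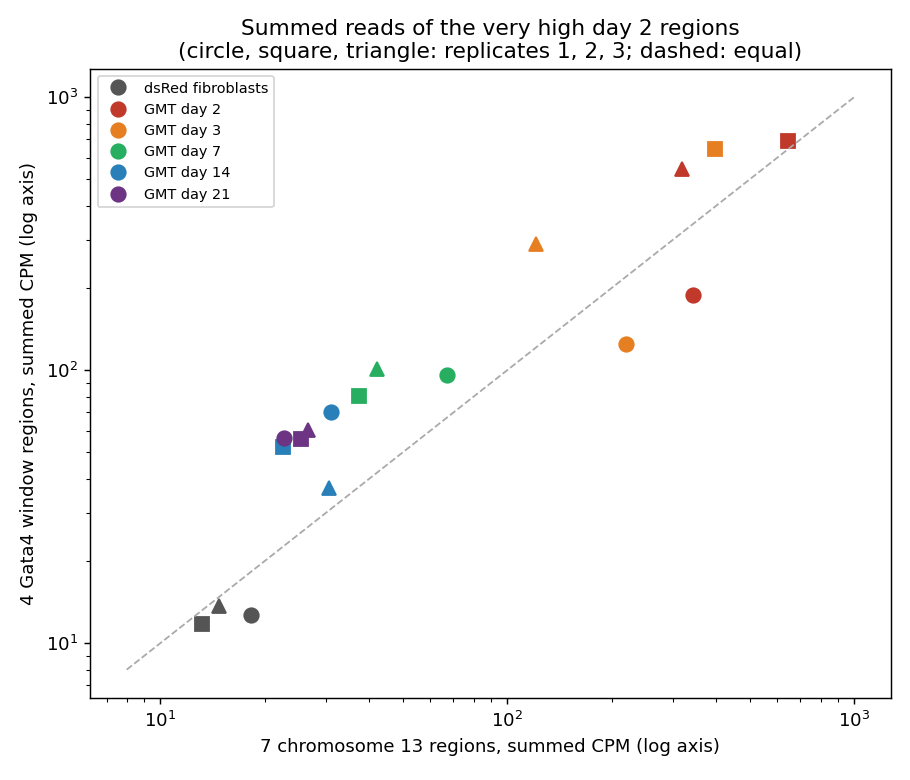
Summed CPM of regions A to D against that of the 7 chromosome 13 regions (both log axes), 1 point per library, with colour for the group and shape for the replicate. The dashed line marks equal sums; all day 7, 14 and 21 libraries lie above it, and the fibroblast libraries and replicate 1 of days 2 and 3 lie below it.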

How the data were processed

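The authors deposited raw read counts for each region, as whole numbers. Bowtie2, Picard, MACS2, edgeR and build mm9 are named per the submitters' processing notes. No settings, adapter offset or pooling of libraries for peak calling is given in the sources used here. Coordinates are printed as the table gives them, and 1 incomplete last line was left out.

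Totals per library were 2.29 to 23.2 M counts, so counting error is largest in the shallow libraries. Effective sizes used TMM (edgeR 4.0.16, R 4.3.3), and filterByExpr kept regions (minimum count 10, minimum total 15). All 18 libraries entered 1 edgeR quasi-likelihood fit with robust estimation, tested two-sided with Benjamini-Hochberg adjustment and called at an adjusted p under 0.05. Log2 fold changes are the fitted values. Alternatives included DESeq2 1.42.0, limma voom 3.58.1, other scalings, no filter, the replicate number as a block and leaving out libraries. On simulated counts for day 21 against day 3, over 144810 regions, the test found 6% of the 2-fold changes, 60% at 4-fold and 88% at 8-fold, with 0 false calls. The simulated spread followed the fitted trend with level alone. It held no wider spread of single regions, such as that of region D at day 3, and no libraries that stood apart. These rates, and the absence of false calls, hold for that setting only.

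The members, lists and rules were chosen with earlier results of these data known. Named regions were those set apart, the 5 of highest mean level among the others, the 3 largest called rises and falls per comparison, and the 10 most like in course. The regions at the border of C and just outside the cut were named after their values were seen. Comparisons of days 14 and 21 with day 3, of successive days other than 3 and 7, and the likeness to A to D alone were added after the data were seen, as was the use of A to D as a group. The labels' replicate numbers were not used to pair the libraries in the main fit.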

Additional observations from a re-analysis of the deposited data

Results flagged for a closer look

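The regions below differed between GMT time points by a test of the difference itself (edgeR's quasi-likelihood test, Benjamini-Hochberg adjusted, n = 3 libraries a time). From day 3 to day 7, region A had a log2 fold change of -2.07 and region B of -2.68. From day 3 to day 14, the log2 fold changes of A, B and C were -2.89, -3.46 and -1.53. From day 3 to day 21 they were -2.65, -3.21 and -1.33. From day 2 to day 21, the region starting at 63804145 had a log2 fold change of -1.60 (adjusted p = 0.0455 by edgeR). In each case all 3 libraries of the earlier time lay above all 3 of the later one. The share of all tested regions with such a separation was not counted. Regions A, B and C were set apart by their day 2 level, with their fall already known. Their tests are therefore a description and no independent support.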

How the results depend on the processing

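Counts of called regions are given for the 47 regions that were not set apart and then for all 54. The 7 set apart add calls against fibroblasts and against day 2 that follow from how they were chosen, so the totals over 54 are a description in those comparisons. Against fibroblasts the calls at days 2, 3, 7, 14 and 21 were 15, 16, 30, 24 and 26 of 47, and 22, 23, 37, 30 and 32 of 54, with 20.3, 22, 27.5, 22.5 and 23.4% of all tested regions called. For day 21 against day 2 they were 1 of 47 and 4 of 54, against 1.44% of all tested regions. With library totals alone as scaling, day 2 gave 34 of 47 and 41 of 54 (25% of all regions), and day 3 gave 29 and 36 (23.5%), all higher. Over the gene span alone, the 5 days gave 7, 6, 13, 13 and 13 of 21 others, and 13, 12, 19, 18 and 18 of 27. Without the filter on low counts, day 14 gave 11 others and 17 in all (0.938% of all regions), and day 7 against day 3 gave 1, as did the fit of these 2 groups alone (0.000287 and 0.00388%).

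Leaving out each library in turn gave 15 to 27, 18 to 29, 26 to 37, 16 to 37 and 21 to 33 calls in all at the 5 days, and 8 to 20, 11 to 22, 19 to 30, 11 to 31 and 15 to 27 among the others. All tested regions gave 10.9 to 15.1, 12 to 18.8, 15.3 to 23.4, 12.5 to 16 and 12.9 to 16.5% in the same fits. The lowest totals came at day 14 without its replicate 1 (16) or fibroblast replicate 1 (18), and at day 21 without fibroblast replicate 1 (21). For day 7 against day 3 the range was 1 to 2 (0.00274 to 0.00686% of all regions), with 1 called without replicate 2 of day 3 or replicates 2 or 3 of day 7. It was 3 to 5 for day 21 against day 2 (0 to 1 among the others), against 0.281 to 0.836% of all regions. For days 14 and 21 against day 3 it was 2 to 4, against 0.011 to 0.218% and 0.0562 to 0.269%. Without the 2 libraries that stood apart the totals against fibroblasts were 29, 33, 44, 35 and 39, with 16.3, 18.8, 26.3, 20.9 and 22.4% of all regions called. The cause of these changes was not tested. Both libraries left out had the lowest summed level of the other regions at their day, so these totals are not an independent test.

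The rule set apart 7 regions, 4 at 8 times the fibroblast mean and 5 without replicate 1 of day 2 (chosen after seeing the data). The highest 1% of day 2 means gave 6, of which 4 were A to D and the other 2 were the regions starting at 63811371 and 63863359, and the 3 near the cut were not among them. With the replicate number as a block the totals against fibroblasts were 21, 25, 37, 30 and 32, 2 for day 7 against day 3 and 4 for day 21 against day 2. Over all tested regions, same-numbered libraries of different groups mostly did not deviate together. Of their pairs, 2 of 45 correlated above 0.1 (highest 0.32), against 6 of 90 pairs of unlike number (highest 0.22). Only 4 of 18 libraries correlated best with their own number. Within the window, replicate 1 of days 2 and 3 did share a pattern, with region D at 24.8 and 22.7% of the reads of A to D. Region B kept its call against day 3 at days 7, 14 and 21 under all 15 alternatives, and region A at days 14 and 21. At day 7 region A lost it under 5. Region D gained a call under 4 alternatives at day 14 and 5 at day 21. No log2 fold change of a named region that was called changed sign under any alternative run. In simulated counts for day 21 against day 3, 6% of 2-fold changes were recovered, so a missing call between GMT days does not show equal levels.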
